A study of Mus musculus with 24 samples.

Results

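The 10 genes described here make, desaturate and lengthen fatty acids: Acly, Acaca and Fasn (synthesis), Scd1, Scd2, Fads1 and Fads2 (desaturation), and Elovl5, Elovl6 and Elovl7 (elongation). They were taken by symbol, and each was found once among the 41549 genes listed for the series. RNA came from dispersed pancreatic islet cells of wild-type mice, a primary mixture of endocrine and other cells, and the labels give no strain, sex or age. All cells were transfected with 50 pmol of an antisense oligonucleotide (ASO), either a control (Ctr) or one directed at 5′tRF-Glu(CTC), a fragment from the 5′ end of a glutamate tRNA (αGlu), and were then kept with 0.75% bovine serum albumin (BSA) or with 0.5 mM palmitate bound to BSA (PA). The 4 combinations, written αGlu PA, αGlu BSA, Ctr PA and Ctr BSA, held 6 libraries each, of which 3 belonged to batch 1 (S1 to S12) and 3 to batch 2 (S13 to S24). The labels do not say what a batch is, and no group was left untransfected.

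Fatty acid synthesis starts in the cytosol, where Acly cleaves citrate to acetyl-CoA, Acaca carboxylates it to malonyl-CoA and Fasn assembles the chain, whose main product is palmitate. Scd enzymes place a double bond in saturated acyl-CoA to give monounsaturated fatty acids such as oleate, Fads2 and Fads1 desaturate polyunsaturated fatty acids at the Δ6 and Δ5 positions, and Elovl enzymes add carbon units to chains of preferred length and saturation. Transcription of these genes is known to be driven by SREBP factors, which respond to sterols and insulin, by ChREBP, which responds to glucose, and by LXR, while unsaturated fatty acids restrain several of them. In the experiment described here palmitate is thus both the treatment and the usual end product of the pathway.

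The rarest calls among these genes came from the palmitate response in batch 2 minus that in batch 1. Of 15916 genes tested, 9 differed, and Scd2 and Fads2 were among the 5 that were higher in batch 2. With both batches in 1 model palmitate raised Elovl6, Elovl5, Scd1 and Fads1 and lowered Acly. Taken by batch, Scd1 was called in batch 2 but not in batch 1, though its difference between the batches did not pass (adjusted p = 0.514). The ASO against the tRNA fragment changed none of the 10 at the threshold.

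Both desaturase families lie on chromosome 19 (GRCm38, GENCODE M21). Scd1 to Scd4 fill 204611 bases, with Scd2 at chr19:44293674-44306864 on the plus strand and Scd1 at chr19:44394455-44407879 on the minus strand. Fads1 (chr19:10182888-10196877, plus) and Fads2 (chr19:10062765-10101746, minus) are transcribed away from each other, with 81142 bases between their annotated starts, and Fads3 lies next to Fads2. Acaca (chr11:84129672-84401651, plus), Acly (chr11:100476353-100528000, minus) and Fasn (chr11:120805846-120824547, minus) share chromosome 11. The elongases are on separate chromosomes, with Elovl6 at chr3:129532355-129638495, Elovl5 at chr9:77917364-77984519 and Elovl7 at chr13:108214404-108285683, all on the plus strand. RefSeq promoter windows (GRCm38.p6, 300 bases, with 250 before and 50 after a RefSeq start) were at hand for 7 of the 10 genes, all but Scd1, Scd2 and Fads1. Below are those of Fads2, whose palmitate response differed between batches, of Elovl6, which rose in both, of Acly, which fell in both, and of Fasn, which did not pass the test over both batches. They are written 5′ to 3′ along the gene, with capitals where a searched motif matched.
Fads2, chr19:10101454-10101753, minus strand: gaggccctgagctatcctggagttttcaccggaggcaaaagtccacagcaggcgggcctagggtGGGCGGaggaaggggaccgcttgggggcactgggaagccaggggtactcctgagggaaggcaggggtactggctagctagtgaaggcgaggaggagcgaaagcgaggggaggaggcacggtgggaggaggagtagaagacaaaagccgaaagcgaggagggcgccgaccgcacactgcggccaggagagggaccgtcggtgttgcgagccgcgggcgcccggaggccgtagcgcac
Elovl6, chr3:129532136-129532435, plus strand: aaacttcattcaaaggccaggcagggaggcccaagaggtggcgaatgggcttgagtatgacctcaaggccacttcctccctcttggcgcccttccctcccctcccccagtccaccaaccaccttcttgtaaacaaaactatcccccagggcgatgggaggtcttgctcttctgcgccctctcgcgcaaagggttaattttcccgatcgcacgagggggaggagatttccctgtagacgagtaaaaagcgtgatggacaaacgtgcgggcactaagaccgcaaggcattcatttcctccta
Acly, chr11:100527951-100528250, minus strand: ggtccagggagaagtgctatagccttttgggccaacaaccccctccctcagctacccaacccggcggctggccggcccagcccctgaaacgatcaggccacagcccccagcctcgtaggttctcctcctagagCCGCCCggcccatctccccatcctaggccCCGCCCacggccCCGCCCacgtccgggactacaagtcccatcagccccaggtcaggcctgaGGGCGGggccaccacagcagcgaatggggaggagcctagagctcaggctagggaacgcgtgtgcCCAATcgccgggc
Fasn, chr11:120824498-120824797, minus strand: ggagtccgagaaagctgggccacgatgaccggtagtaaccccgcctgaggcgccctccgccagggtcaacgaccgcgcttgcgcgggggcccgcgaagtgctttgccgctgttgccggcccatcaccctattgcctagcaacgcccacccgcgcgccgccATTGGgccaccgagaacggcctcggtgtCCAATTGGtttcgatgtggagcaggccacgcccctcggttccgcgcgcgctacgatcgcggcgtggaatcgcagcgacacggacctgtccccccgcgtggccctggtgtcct
The motifs were the sterol regulatory element TCACNCCAC, the E-box CACGTG, the CCAAT box, the GC box GGGCGG, and the nuclear receptor repeats DR1 and DR4, each read on both strands. The Fads2 window held 1 GC box and the Elovl6 window no match. The Acly window held 4 GC boxes and 1 CCAAT box, and the Fasn window 3 CCAAT boxes, of which a pair on opposite strands overlaps. Of all 32817 windows, 35.6% held a GC box, 37.4% a CCAAT box, 7.15% the E-box and 1.24% the sterol regulatory element, while DR1 and DR4 were found in 0.0396% and 0.0152%. None of the 7 windows held the sterol regulatory element, DR1 or DR4, and Elovl5 alone held the E-box, which says only that these letters are not in the other windows. The Acaca window, at chr11:84195188-84195487, lies inside the gene and not at the GENCODE start given above. The Fads2 window likewise lies almost wholly inside the gene as annotated by GENCODE, whose start is at chr19:10101746. For these 2 genes the matches do not describe the sequence before the GENCODE start.

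The libraries held 18214719 to 35001979 counts on exons (median 26701201.5). Summed CPM (counts scaled to the library total) of 8 beta cell markers, among them Ins1 and Ins2, were 84470 to 143039, so the labelled tissue's defining markers were abundant, and those of 7 adipocyte markers were 0.554 to 2.44, with Cfd at 0 in every PA library and every BSA library of batch 2. The batches differed in other cells. Summed CPM of 8 acinar markers was 3187 to 22880 in batch 1 and 208 to 598 in batch 2, and that of the beta cell markers was 84470 to 113240 against 107305 to 143039. With PA in Ctr cells, 6 of 8 acinar, 6 of 7 fibroblast and stellate, 5 of 7 macrophage, 3 of 6 ductal, 3 of 8 beta, 1 of 5 alpha, 1 of 3 delta and the single PP cell marker were called lower, 2 beta cell markers were called higher, and no endothelial, Schwann or adipocyte marker was called. In αGlu cells, 6 of 8 acinar, 4 of 7 fibroblast and stellate and 1 of 7 macrophage markers were called lower. So were 3 of 6 ductal, 2 of 8 beta and 1 of 3 delta cell markers. There 2 beta cell markers were higher, and no alpha, PP, endothelial, Schwann or adipocyte marker was called. Of all genes, 14.5% were called lower in Ctr and 14.2% in αGlu. No marker was called for the difference of both palmitate responses. Summed CPM of 8 fibroblast and stellate markers was 84.6 to 1061 in BSA and 11.4 to 178 in PA. In such mixed cells, fewer cells of a type and less RNA per cell cannot be told apart, and the part of cell composition in the results below was not tested.

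Levels per transcript length, as deposited TPM (reads scaled for transcript length and library total), spanned a wide range in Ctr BSA cells. Acly was by far the most abundant, with a median of 1426 TPM (1096 to 1850), and 34 genes of the series had a higher median. Scd2 followed at 198.9 TPM (124 to 242), then Elovl5 at 89.8 (61.03 to 124.2) and Fasn at 58.4 (45.4 to 64.9). The remaining 6 lay close together. Fads1 had a median of 30.1 TPM, Scd1 25.8, Fads2 25.1, Elovl6 17.3, Acaca 15.1 and Elovl7 11.98. Acly did not overlap Scd2, and Fasn did not overlap Fads1, whereas every other pair of neighbours in this order overlapped across the 6 libraries. Within single libraries the upper order was steadier: Scd2 exceeded Elovl5, and Elovl5 exceeded Fasn, in all 24 libraries, while Fads1 exceeded Scd1 in 11 of 24. Scd2, a form known from brain, was thus the leading Δ9 desaturase in these islet cells in all 24 libraries, with a TPM 1.96 to 14.4 times that of Scd1.

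**Figure D1:**
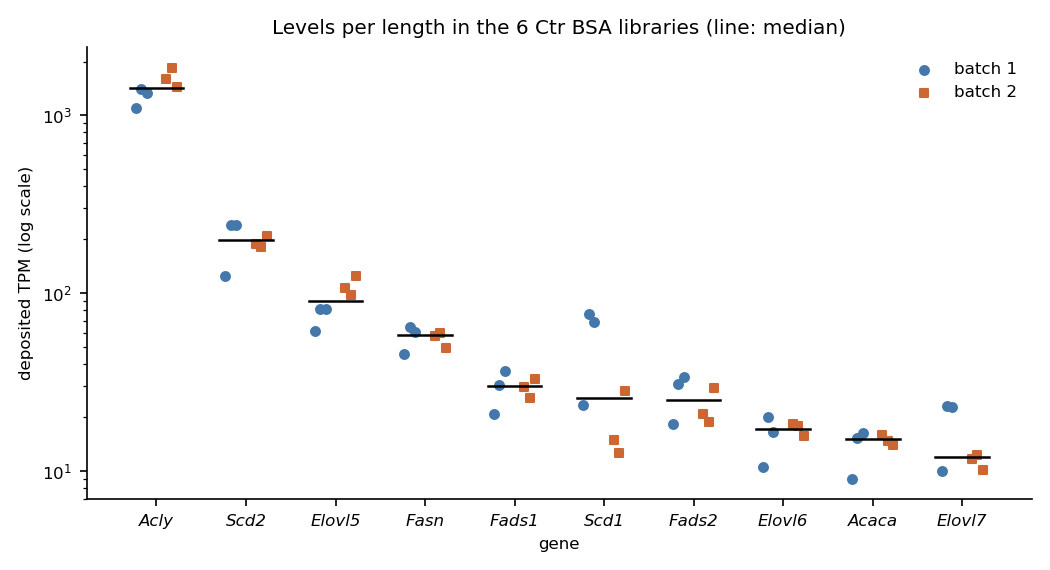
Deposited TPM (log axis) of the 10 genes in the 6 Ctr BSA libraries, ordered by median (line), with batch 1 as circles and batch 2 as squares. Acly stands at 1096 TPM or more in every library, and Scd1 is spread from 12.6 to 76.02 TPM.

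The main treatment comparison asks how palmitate changed these genes in Ctr cells. Of the 10 genes, 4 rose and 1 fell, against 15.5% of all 15916 genes called higher and 14.5% called lower, and their median log2 fold change was 0.29 against 0.01 over all genes. The same 5 genes passed in αGlu cells in the same directions, where 14.4% of all genes were called higher and 14.2% lower, and the median was 0.28.

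Elovl6, which lengthens palmitate to stearate, was 32.3 to 44.3 CPM (median 39.2) in Ctr BSA and 49.7 to 74.3 CPM (median 56.2) in Ctr PA. In αGlu cells it was 34.8 to 45.7 (median 38.1) and 50.2 to 70.9 CPM (median 56.96). All PA libraries lay above all BSA libraries under both ASOs, which held for no other member in Ctr cells and for 2.97% of all genes there, and for 4.17% in αGlu cells. On the log2 scale it rose by 0.56 ± 0.07 (SE, n = 6 per group; adjusted p = 4.67e-06) in Ctr and 0.55 ± 0.07 (adjusted p = 5.02e-06) in αGlu.

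Fads1, the Δ5 desaturase, was 43.9 to 61.7 CPM (median 50.6) in Ctr BSA and 57.4 to 89.3 CPM (median 69.3) in Ctr PA, so that both groups overlapped. In αGlu cells BSA and PA did not overlap, at 44.2 to 52.7 and 56.6 to 76.6 CPM. The log2 fold change was 0.41 ± 0.09 (SE; adjusted p = 9.80e-04) in Ctr and 0.46 ± 0.09 (adjusted p = 3.36e-04) in αGlu. Scd1, the stearoyl-CoA desaturase best known from liver and fat, ranged from 21.8 to 127 CPM in Ctr BSA and from 59.1 to 163 CPM in Ctr PA. BSA and PA overlapped, and within each of the 4 groups all libraries of batch 1 lay above all of batch 2. The rise was the largest of the 10, at 0.77 ± 0.23 (adjusted p = 0.0147) in Ctr and 0.85 ± 0.24 (adjusted p = 0.00815) in αGlu, on the log2 scale.

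Elovl5, which lengthens polyunsaturated fatty acids, was 97.6 to 162 CPM (median 112.6) in Ctr BSA and 126 to 211 CPM (median 140.8) in Ctr PA. It rose by 0.33 ± 0.08 on the log2 scale in Ctr (adjusted p = 0.00227) and by 0.25 ± 0.08 in αGlu (adjusted p = 0.0202). The αGlu call was lost without αGlu PA library S12 (log2 fold change 0.20), and the Ctr PA library S23 stood apart at 211 CPM. Acly, the citrate lyase that feeds the pathway, was the only member that fell. It was 2450 to 3465 CPM (median 2791) in Ctr BSA and 2061 to 2820 CPM (median 2367) in Ctr PA. The log2 fold change was -0.23 ± 0.06 (SE; adjusted p = 0.00558) in Ctr and -0.26 ± 0.06 (adjusted p = 0.00252) in αGlu. Without the batch term in the model, Scd1, Elovl5 and Acly no longer passed under either ASO (adjusted p = 0.327, 0.115 and 0.147 in Ctr).

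The other 5 genes did not pass over both batches. Fasn, the synthase itself, had 198 to 242 CPM (median 231.8) in Ctr BSA and 208 to 247 CPM (median 222.7) in Ctr PA, with a log2 fold change of -0.01 (95% interval -0.13 to 0.11). Acaca, the carboxylase that commits carbon to the pathway, had 0.08 (-0.04 to 0.20), and Elovl7, an elongase of long-chain acyl-CoA, had 0.10 (-0.13 to 0.34). For Scd2 and Fads2 the values were 0.29 (-0.04 to 0.63) and 0.29 (-0.08 to 0.66), with intervals far wider than that of Fasn. Of distinct 50-base stretches in the Acaca transcripts, 29.2% also occur in the pseudogene Gm5182, so its counts are uncertain. For the other members at most 4.56% were shared with any gene, the highest being Scd1.

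**Figure D2:**
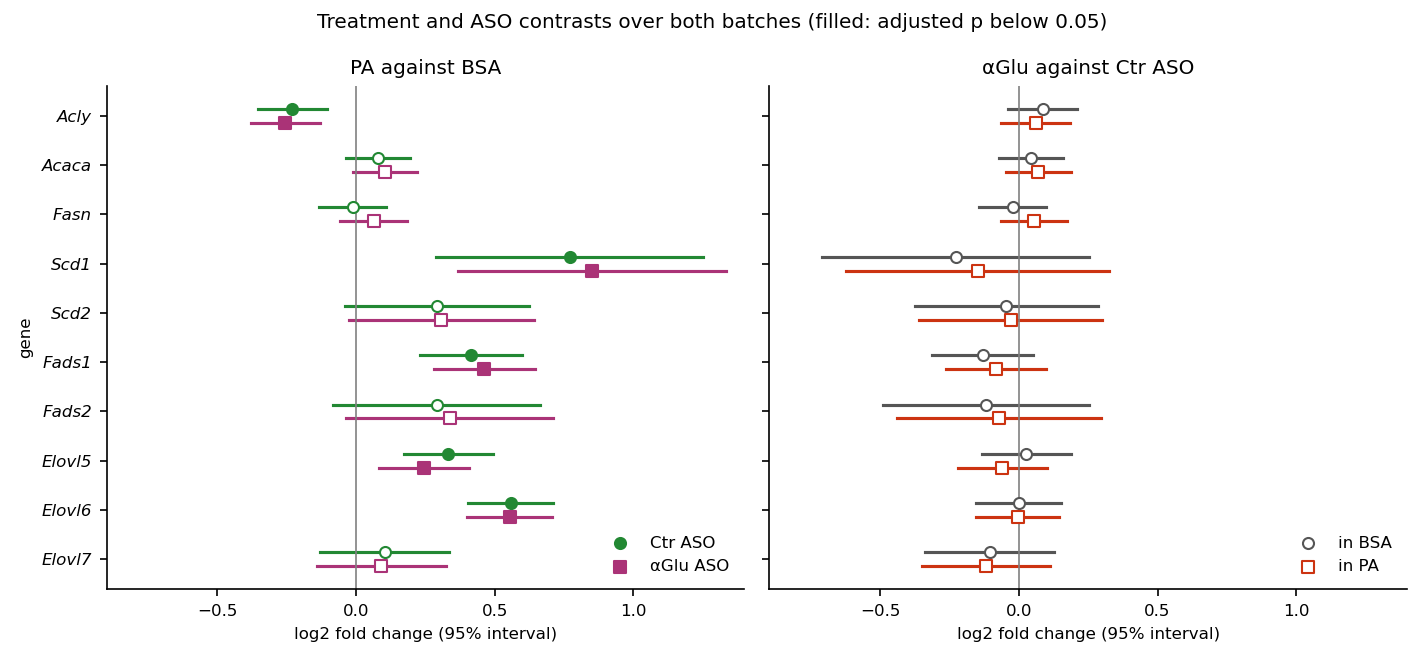
Log2 fold change with 95% interval of each gene over both batches, for PA against BSA under each ASO (left) and for αGlu against Ctr ASO in BSA and in PA (right); filled symbols have an adjusted p below 0.05. At left 5 genes are filled under both ASOs, with Scd1 at 0.77 and 0.85; at right every interval spans 0.

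The ASO comparisons ask whether blocking the tRNA fragment changed these genes. None of the 10 was called for αGlu against Ctr in BSA, in PA, or for the difference of both palmitate responses, and in each of the 3 comparisons edgeR's quasi-likelihood test called 0% of all genes. At an unadjusted p below 0.05 there were 461, 538 and 332 genes and 0 members. DESeq2 called 8, 30 and 0 genes and again 0 members. In BSA the log2 differences ran from -0.23 for Scd1 (95% interval -0.71 to 0.25) to 0.09 for Acly (-0.04 to 0.21). In PA they ran from -0.15 for Scd1 (-0.62 to 0.33) to 0.07 for Acaca (-0.04 to 0.19). The palmitate response in αGlu minus that in Ctr was 0.02 for Scd2 (-0.45 to 0.48), 0.05 for Fads2 (-0.48 to 0.57) and -0.03 for Acly (-0.20 to 0.15). A p that misses the threshold does not show that the ASOs acted alike. The 95% intervals, from unpaired tests over both batches, give the precision of each difference and are not limits on it.

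The palmitate response of 2 desaturases, Scd2 and Fads2, differed between the batches. In batch 1, Scd2 was 324, 450 and 464 CPM in Ctr BSA and 343, 356 and 375 CPM in Ctr PA. In batch 2 it was 369, 351 and 425 CPM in Ctr BSA and 657, 553 and 762 CPM in Ctr PA. The BSA levels of both batches overlapped, whereas all PA libraries of batch 2 exceeded every other Ctr library. In αGlu cells the PA libraries of batch 2 likewise exceeded every other αGlu library, while the BSA libraries of batch 2 lay below those of batch 1. The values were 388, 402 and 422 CPM in BSA and 341, 352 and 377 in PA of batch 1, and 361, 354 and 379 in BSA and 655, 605 and 648 in PA of batch 2.

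Fads2, the Δ6 desaturase that opens the polyunsaturated pathway, had a like pattern. Its Ctr BSA libraries had 28.99, 34.8 and 39.1 CPM in batch 1 and 24.9, 22.1 and 35.6 CPM in batch 2, and its Ctr PA libraries 28.6, 29.6 and 27.4 CPM against 53.1, 46.2 and 47.3 CPM. In αGlu cells the BSA values were 32.5, 32.98 and 32.5 CPM against 24.1, 22.9 and 25.5 CPM, and the PA values 29.9, 27.6 and 27 CPM against 47.9, 42.9 and 45.4 CPM. In batch 2 the 6 PA libraries lay above the 6 BSA libraries for both genes, as they did for 5 of the 10 members and 7.21% of all genes, and in batch 1 every PA library lay below 5 of the 6 BSA libraries.

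Averaged over both ASOs, the log2 fold change with PA was -0.19 ± 0.08 (SE, adjusted p = 0.0725) for Scd2 in batch 1 and 0.79 ± 0.08 (adjusted p = 4.64e-07) in batch 2. For Fads2 it was -0.24 ± 0.09 (adjusted p = 0.0438) and 0.87 ± 0.09 (adjusted p = 5.19e-07). The response in batch 2 minus that in batch 1 was 0.99 ± 0.11 for Scd2 and 1.11 ± 0.13 for Fads2, each with an adjusted p of 1.03e-04. Of all genes, 0.0314% were called higher and 0.0251% lower in this test. Among those called higher, named here after their values were seen, were Fdps (0.67), known for isoprenoid and sterol synthesis, and Acat2 (0.67), known for cytosolic acetoacetyl-CoA formation. The 4 called lower were Pappa2 (-0.58), Slc4a10 (-0.43), Slc38a5 (-0.68) and Kcnh1 (-0.53). No marker of the 11 cell types was called in this test. Summed CPM of 8 macrophage markers was 77.3 to 115.8 in BSA and 82.01 to 127.8 in PA of batch 1, and 145.2 to 353.3 in BSA and 85.6 to 133.5 in PA of batch 2, so that BSA lay above PA in batch 2 and overlapped it in batch 1. Other lists also differed by batch in their median log2 fold change with PA. It was -0.04 in batch 1 and -1.30 in batch 2 for 6 endothelial markers, of which 0 and 2 were called lower, -2.31 and -3.95 for 7 fibroblast and stellate markers, 0.27 and -0.21 for 5 alpha cell markers, and -1.50 and -0.70 for 8 acinar markers. The part of these cells in the result was not tested.

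The difference is given next for each ASO on its own. Both sets of 12 libraries are parts of the test above, and the study states that the groups of a replicate came from the same animal or passage, so they are not independent of it or of each other. In Ctr cells it was 0.99 ± 0.16 for Scd2 and 1.09 ± 0.18 for Fads2 (adjusted p = 0.0306 for each), and these were the only genes called higher of all tested (0.0126%). In αGlu cells it was 0.98 ± 0.16 for Scd2 (adjusted p = 0.0227) and 1.12 ± 0.18 for Fads2 (adjusted p = 0.0208), the third of the 3 genes called higher (0.0188%) being Fdps. Leaving out any 1 of the 24 libraries kept both calls, with differences of 0.93 to 1.06 for Scd2 and 1.04 to 1.22 for Fads2. The number of genes called then ranged from 5, without αGlu BSA library S22, to 13, and DESeq2 called 43.

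**Figure D3:**
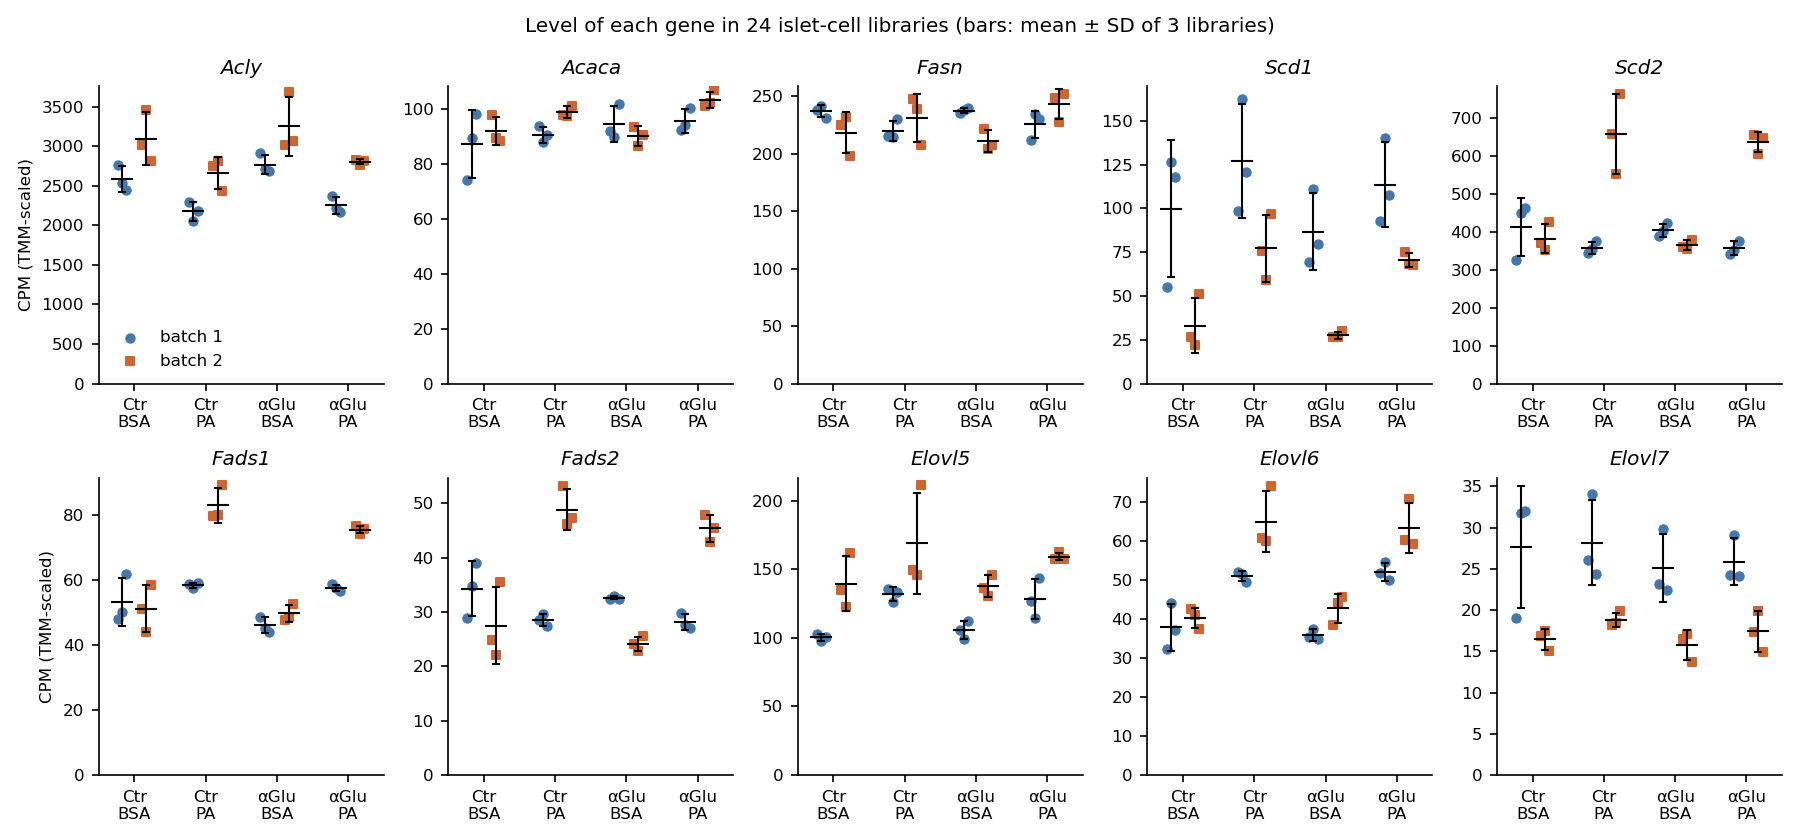
TMM-scaled CPM of each gene in every library by group, with batch 1 as circles, batch 2 as squares and bars for the mean ± SD of 3 libraries; axes start at 0. For Scd2, Fads2 and Fads1 the batch 2 PA libraries stand above all others, while Fasn and Acaca stay nearly level.

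None of the remaining members passed the test of the difference between batches averaged over both ASOs. Fads1 was 57.4 to 59.0 CPM in Ctr PA of batch 1 and 79.7 to 89.3 CPM in Ctr PA of batch 2, from BSA levels that overlapped, and its response differed by 0.42 ± 0.09 (adjusted p = 0.120). This passed with DESeq2 (adjusted p = 0.00695) and without Ctr BSA library S21 (difference 0.48). Scd1 responded with 0.37 ± 0.20 in batch 1 (adjusted p = 0.183) and 1.28 ± 0.21 in batch 2 (adjusted p = 1.2e-04). Its difference of 0.92 ± 0.29 (95% interval 0.31 to 1.52, adjusted p = 0.514) was near that of Scd2, with a larger SE. Fasn differed by 0.23 ± 0.07 (adjusted p = 0.473). In contrast, Elovl6 rose in both batches, by 0.48 ± 0.07 and 0.63 ± 0.07, as did Elovl5, by 0.34 ± 0.08 and 0.24 ± 0.08, and Acly fell in both, by 0.27 ± 0.06 and 0.21 ± 0.06. The differences for Elovl6, Elovl5 and Acly were 0.15 (95% interval -0.07 to 0.36), -0.09 (-0.33 to 0.14) and 0.06 (-0.13 to 0.24).

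Counted by batch, palmitate raised 3 members in batch 1 (Elovl6, Elovl5 and Fads1) and lowered 2 (Acly and Fads2), where 16.4% and 14.3% of all genes were called. In batch 2 it raised 8 (Elovl6, Elovl5, Acaca, Fasn, Fads2, Fads1, Scd2 and Scd1) and lowered Acly, where 13% and 13.5% of all genes were called. The median response of the 10 was 0.03 in batch 1 and 0.44 in batch 2, against 0.01 and 0.00 over all genes. Between batches the acinar marker sums given above differed far more than any member, and their part in the response was not tested.

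**Figure D4:**
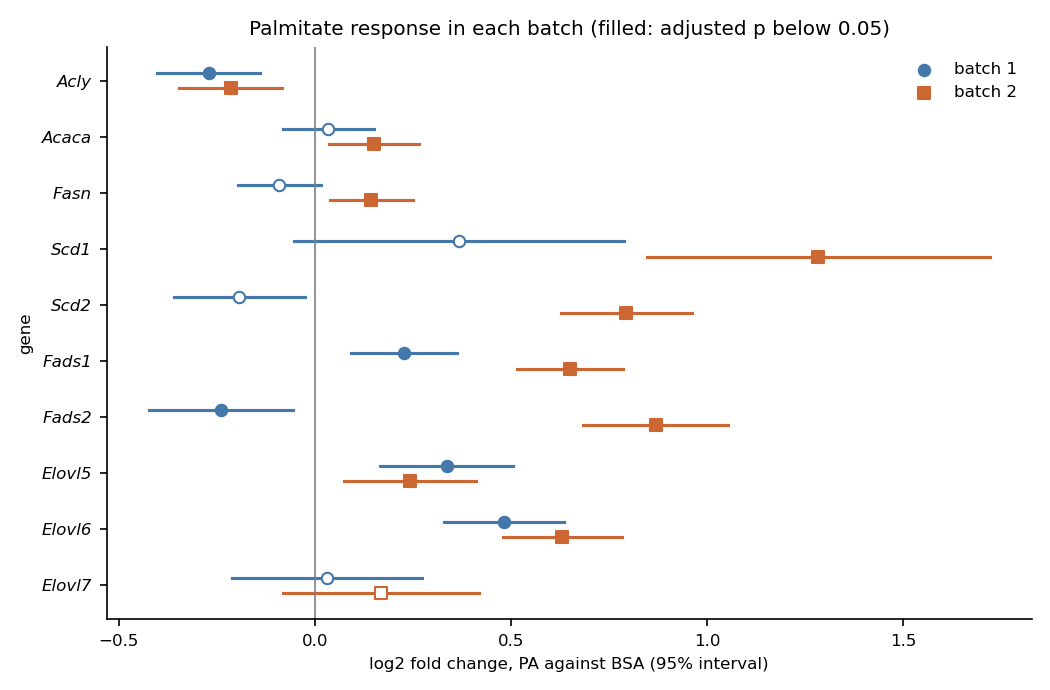
Log2 fold change of PA against BSA, averaged over both ASOs, with 95% interval in batch 1 (circles) and batch 2 (squares); filled symbols have an adjusted p below 0.05. The intervals of Scd2 and Fads2 lie on opposite sides of 0 in the 2 batches, whereas those of Acly, Elovl5 and Elovl6 overlap.

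With PA the median ratio within the Fads pair rose in batch 1 and fell in batch 2, whereas that within the Scd pair fell in both. The TPM of Fads1 divided by that of Fads2 had a median of 1.01 in BSA (0.931 to 1.13) and 1.42 in PA (1.33 to 1.47) in batch 1, but 1.38 (1.12 to 1.46) and 1.16 (1.03 to 1.29) in batch 2. The ranges did not overlap in batch 1 and overlapped in batch 2. For Scd2 divided by Scd1 the medians in batch 1 were 4.14 in BSA (3.18 to 5.28) and 2.95 in PA (1.96 to 3.28). In batch 2 they were 12.1 in BSA (7.465 to 14.4) and 7.89 in PA (7.04 to 8.54). The ranges of BSA and PA overlapped in both batches. Here batch 2 exceeded batch 1 throughout.

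Levels themselves also differed between batches, in a term that averages over BSA and PA. Of the 10 genes, 5 were higher in batch 2 (26.1% of all genes) and 2 were lower (25.4%), so that calls were common overall. Scd1 had the largest log2 difference, -1.15 ± 0.17 (adjusted p = 2.96e-06), with BSA levels of 55.0 to 127 CPM in batch 1 and 21.8 to 50.9 CPM in batch 2, which did not overlap. Elovl7 followed at -0.64 ± 0.08 (adjusted p = 2.93e-07). Elovl5 was higher by 0.38 ± 0.06, Scd2 by 0.36 ± 0.11, Acly by 0.28 ± 0.04, Elovl6 by 0.24 ± 0.05 and Fads1 by 0.24 ± 0.06. Fasn (-0.03), Acaca (0.06) and Fads2 (0.18) did not pass. For Scd2, Fads1 and Fads2 this average covers unlike levels. Fads2 was 28.99 to 39.1 CPM in BSA of batch 1 and 22.1 to 35.6 CPM in BSA of batch 2. In PA it was 27 to 29.9 CPM in batch 1 and 42.9 to 53.1 CPM in batch 2. In BSA, Scd2 was 324 to 464 CPM in batch 1 and 351 to 425 CPM in batch 2, and Fads1 was 44.2 to 61.7 against 43.9 to 58.4 CPM, so that the batches overlapped, whereas in PA all libraries of batch 2 were the higher for both genes. No member separated all 12 libraries of one batch from those of the other, which 3.23% of all genes did with batch 2 higher and 3.64% with batch 2 lower. Without TMM scaling, 3095 genes were called higher and 4613 lower in place of 4158 and 4039, and the 7 calls among the members were still made.

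Genes around the pathway were taken from lists, each given here for PA in Ctr cells. The share to set beside each count is 15.5% of all genes called higher and 14.5% called lower. Of 10 genes that supply acetyl-CoA and NADPH, 3 rose and 1 fell (median 0.09). The citrate carrier Slc25a1 rose by 0.37, the acetyl-CoA synthetase Acss2 by 0.29 and the NADPH-forming Idh1 by 0.31, while the acetoacetyl-CoA synthetase Aacs fell by 0.21 on the log2 scale. A further list joined partners of fatty acid synthase with genes of mitochondrial fatty acid synthesis. Of its 10 tested genes, 4 rose and none fell (median 0.22). These were the malonyl-CoA decarboxylase Mlycd (0.32), Aasdhppt, which attaches the carrier arm of the synthase (0.29), and the mitochondrial synthase Oxsm (0.29). The last was Thrsp (1.39), a lipogenic protein present at 0.124 to 1.52 CPM in Ctr cells. Acacb, the mitochondrial carboxylase, was 0.25 (adjusted p = 0.410) and had a log2 difference of -2.28 between batch 2 and batch 1.

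Among 10 other desaturases and electron donors, 6 rose and 1 fell (median 0.25). Scd3 rose by 0.72 from 1.49 to 2.80 CPM in Ctr BSA to 2.55 to 3.88 CPM in Ctr PA, and the sphingolipid desaturase Degs2 (0.84), the cytochrome b5 reductase Cyb5r1 (0.90), the outer-mitochondrial cytochrome b5 Cyb5b (0.43) and Fads6 (0.23) rose too. Fads3, next to Fads2 on the chromosome, fell by 0.89 in Ctr and by 1.03 in αGlu and had a log2 difference of -1.81 between batch 2 and batch 1, and Scd4 was 0.16 (adjusted p = 0.768). Of 9 tested genes of the elongation cycle, 3 rose and 1 fell (median 0.11). These were Hsd17b12, the ketoacyl reductase (0.37), Elovl2 (0.18), Elovl4 (0.59) and the dehydratase Hacd4, which fell by 2.45, while Elovl1 was 0.07 (adjusted p = 0.581). Elovl4 was 0.16 in αGlu (adjusted p = 0.282). Elovl3 was not tested, with 5 counts in all 24 libraries together.

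Regulators did not move as a block. Of 21 tested, 6 rose and 3 fell (median 0.01), against 15.5% and 14.5% of all genes. Insig1, the sterol-sensing retention protein that is itself an SREBP target, was 123 to 147 CPM in Ctr BSA and 179 to 277 CPM in Ctr PA, which did not overlap, and rose by 0.69 (adjusted p = 5.15e-06). Trib3 (0.68), Pparg (0.62) and the SREBP-cleaving protease Mbtps2 (0.42) rose as well. The transcripts of SREBP itself were -0.04 for Srebf1 and 0.01 for Srebf2, those of ChREBP -0.12 for Mlxipl and those of LXRα 0.05 for Nr1h3, and none of these passed. Of 8 LXR targets, 4 rose and 3 fell (median 0.18), with the phospholipid acyltransferase Lpcat3 at 0.96, Mylip at 0.33, Abca1 at 0.27 and Apoe, which macrophages also express, at -2.10.

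Of 20 genes of cholesterol synthesis and uptake, 11 rose with PA in Ctr and none fell (median 0.29). Among them were Fdps (0.70), Dhcr7 (0.59), Lss (0.54) and Sqle (0.53). In αGlu 13 rose (median 0.30), where 14.4% of all genes were called higher. The 20 genes showed a batch pattern akin to that of Scd2 and Fads2. In batch 1, 6 rose and 1 fell (median 0.13), against 16.4% and 14.3% of all genes. In batch 2, 18 rose and none fell (median 0.48), against 13% and 13.5% of all genes. The response in batch 2 minus batch 1 was above 0 for 20 of 20 sterol genes, with a median of 0.39, and Fdps was among those that passed the test. It was above 0 for 9 of 10 members (median 0.19) and for 45.9% of all genes (median -0.02). Insig1 differed by 0.45 (adjusted p = 0.120), Srebf1 by 0.32 (adjusted p = 0.445) and Srebf2 by 0.09 (adjusted p = 0.921). In the other 6 lists no gene passed this test.

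**Figure D5:**
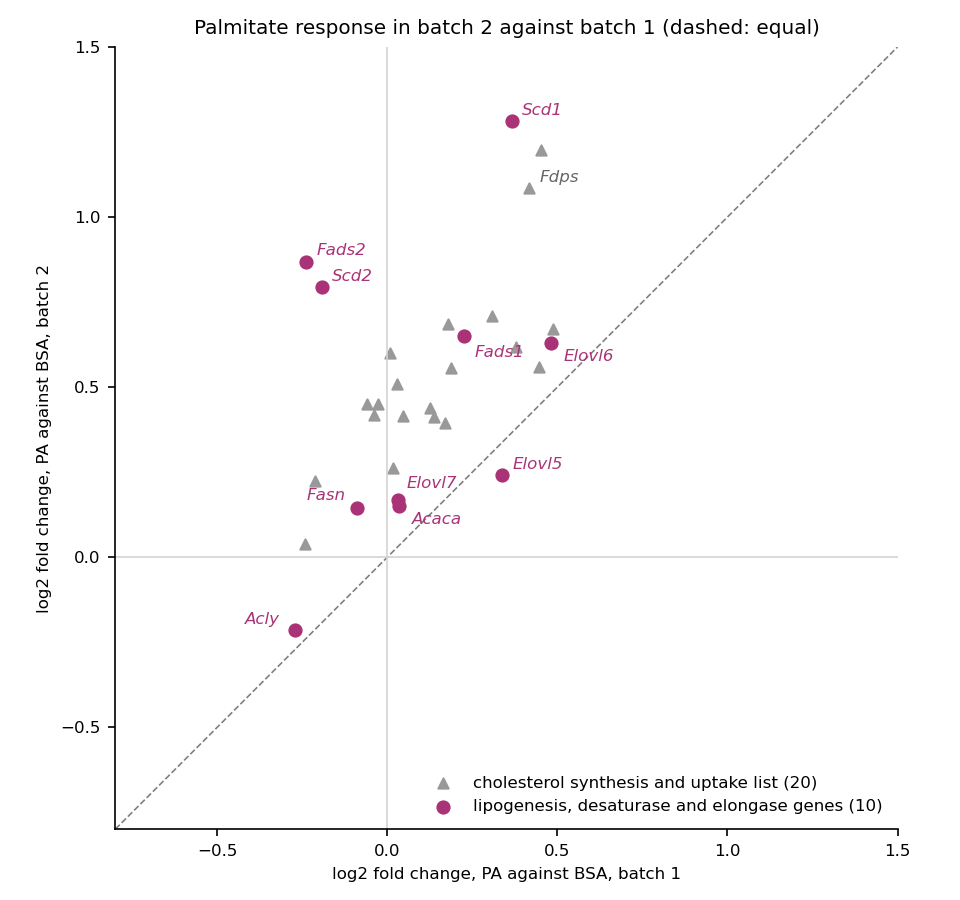
Log2 fold change with PA in batch 2 (vertical) against batch 1 (horizontal) for the 10 genes (circles) and the 20 sterol genes (triangles); the dashed line marks equal responses. All 20 triangles and 9 of 10 circles lie above the line, Scd2 and Fads2 farthest from it, and Elovl5 lies below.

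The members also differed in which genes they tracked. Pearson's r of log2 CPM over the 24 libraries, which share batch, treatment and scaling, was 0.91 for Scd2 with Fads2, 0.85 for Fads1 with Elovl6, 0.83 for Scd2 with Fads1 and 0.80 for Scd1 with Elovl7. Acly with Scd1 was -0.88. After removal of the mean of each group in each batch, Scd2 with Fads2 remained at 0.61 and Fads1 with Fads2 at 0.76, whereas Fads1 with Elovl6 was 0.11. The highest pair was then Scd1 with Scd2, at 0.79, which had been 0.16 before removal. Scd1 with Elovl7 was 0.55 and Acly with Scd1 -0.71. Among 9467 other genes of at least 10 CPM on average, those closest to Scd2 were the sterol demethylase Cyp51 (0.93, and 0.84 after removal of the means) and Nsdhl (0.89 and 0.55), which act in sterol synthesis. Fads2 was closest to Acat2 (0.78) and Cyp51 (0.77), but after removal of the means these were -0.10 and 0.32. Fads1 was closest to Tmem41b (0.91 and 0.58) and to the sterol enzyme Msmo1 (0.90 and 0.31).

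The genes of synthesis and elongation had other neighbours. Elovl6 was closest to Ghitm (0.97) and Krcc1 (0.96), Elovl5 to Tmem65 (0.97) and Vamp4 (0.97), and Elovl7 to Pvr (0.95) and Cd24a (0.95). Scd1 was closest to Atf3 (0.94), a stress-induced factor, and to Rhoq (0.93). Acly was closest to Gabbr2 (0.94) and Fkbp9 (0.93), Acaca to Smcr8 (0.79) and Spg11 (0.78), and Fasn, whose level varied least, to Apba3 (0.71) and Aars (0.70). After removal of the means the values of this paragraph lay between 0.60 for Scd1 with Rhoq and 0.89 for Elovl7 with Cd24a.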

How the data were processed

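Stranded mRNA libraries were counted by the authors with the QIAGEN RNA-seq Analysis Portal on the build GRCm38, the latter as named in the submitters' processing notes. Aligner, annotation and strand setting: not given in the sources used here. Deposited by the authors were counts of reads on exons per gene, and, made from them by the authors, RPKM and TPM values, both scaled for length and library total. The 24 CPM columns were not used. Per the file headers each column names 1 library. 1 line named no gene and held 0 counts.

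Counts were tested with edgeR 4.0.16 (quasi-likelihood test, TMM scaling, filterByExpr with a minimum count of 10, R 4.3.3), with group and batch terms over all 24 libraries or, for palmitate responses by batch, 1 term per group and batch. A gene was called at a Benjamini-Hochberg adjusted p below 0.05 over 15916 genes. Printed CPM are TMM-scaled, except marker sums, which use all counts. Intervals are 95%. On simulated counts, 2-fold changes were recovered for 81.8% of changed genes with PA in Ctr and for 74.7% in the response by batch. For 1.5-fold changes these were 65.7% and 55.6%. Unchanged genes that were called numbered 7 with PA in Ctr and 10 in the response by batch, of 15741 and 15739 genes run. The study states that the groups of a replicate came from the same animal or passage, but the labels do not say which libraries belong together, so all tests are unpaired and p-values measure the spread between libraries.

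The 10 genes, the 7 pathway lists and the 11 marker lists were chosen with earlier results of these data known. Named besides the members were the up to 4 genes of smallest p per list with PA in Ctr, Srebf1, Srebf2, Mlxipl, Insig1, Nr1h3 and the paralogs, and the 2 genes most correlated with each member. Gene positions were from GENCODE M21, promoters from RefSeq. Alternatives were RLE scaling, DESeq2 1.42.0, no filter, no batch term, compared groups alone, each batch alone, the study's fold and p cut-offs (absolute log2 fold change above 1, p below 0.05), read here with an unadjusted p, which the study does not specify, RPKM for the order of levels, and each library left out. The responses within each batch, their difference under each ASO, and no TMM scaling were added after seeing the data. The values of 1 gene are not reported here.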

Additional observations from a re-analysis of the deposited data

Results flagged for a closer look

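The palmitate response of Scd2 in batch 2 exceeded that in batch 1 by 0.99 on the log2 scale, and that of Fads2 by 1.11, in a test of the difference between batches; what the batches stand for is not given, so any property they differ in cannot be told apart from batch. Elovl5 in Ctr PA had 1 library, S23, at 211 CPM, far above the others, with a gap that was 0.724 of the range of the group's 6 libraries. This was 1 of 40 combinations of gene and group examined, of which chance alone is expected to mark about 1 in 20. Without S23 the Elovl5 response in Ctr was 0.26 and was still called.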

How the results depend on the processing

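The text is limited by batches whose nature is not given, by mixed cells, and by 3 libraries per group and batch. No paired analysis was possible because the labels give the groups no shared replicate numbers, although the study describes the groups of a replicate as coming from the same animal or passage, so that a shared preparation is not accounted for. Causes of the changes below were not tested. Among values not from single-library omissions, 421 of the log2 fold changes of members kept direction and side of the threshold, 28 changed direction, 15 lost and 6 gained a call.

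Without a batch term, 2 members were called with PA in Ctr and 2 in αGlu, and in batch 1 alone 2 were called in Ctr and 3 in αGlu. By the study's cut-offs, read with an unadjusted p, 0 members passed with PA in Ctr, 0 in αGlu, 1 between batches and 1 in the response by batch. By RPKM, Scd1 ranked 7 and Fads2 6 among the members. Genes called with PA in Ctr and αGlu numbered 4772 and 4543, against 2312 and 2271 without a batch term, 2033 and 1644 in batch 1 alone, 1833 and 1902 in batch 2 alone, and 941 and 886 by the study's cut-offs, which gave 1015 between batches against 8197. For the response by batch, 9 genes became 43 with DESeq2, 6 without TMM scaling, 237 by the study's cut-offs and 5 to 13 with 1 library left out. For αGlu against Ctr, 0 genes became 8 in BSA and 30 in PA with DESeq2, 3 in PA without the filter, 6 in PA with the compared groups alone or in batch 2 alone, and 125 and 150 by the study's cut-offs, which gave 104 for the difference of both responses. With 1 library left out they were 0 to 9 in BSA and 0 to 3 in PA.

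Direction changed mostly for values near 0. For αGlu against Ctr in BSA, Elovl6 became 0.0014 with RLE scaling, 0.00083 with DESeq2, 0.0046 without the filter, 0.032 without TMM scaling, 0.0075 without a batch term, 0.0018 with the compared groups alone and 0.083 in batch 2 alone. Without TMM scaling, Fasn was 0.022 with PA in Ctr and 0.019 for αGlu in BSA, Elovl6 0.0014 for αGlu in PA, Acaca -0.0029 and Scd2 -0.017 for the difference of both responses, and Acly -0.00083 for the response by batch. In batch 1 alone, PA in Ctr gave Scd2 -0.215 and Fads2 -0.277, PA in αGlu gave Scd2 -0.188, Fads2 -0.22 and Fasn -0.082, αGlu against Ctr gave Fasn 0.0033 in BSA and Elovl6 0.0297 in PA, and the difference of both responses gave Acaca -0.036, Elovl6 0.114 and Elovl7 0.0227. In batch 2 alone, Fasn was 0.085 with PA in Ctr, Acaca -0.030, Elovl5 -0.024 for αGlu in BSA, and Acly 0.0039 and Fads1 -0.089 for the difference.

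With each library left out in turn, log2 values that changed direction or call ranged as follows. For PA in Ctr, Fasn ranged from -0.0481 to 0.00998. For PA in αGlu, Elovl5 ranged from 0.201 to 0.271. For αGlu in BSA, Fasn ranged from -0.0574 to 0.00337, Acaca -0.00051 to 0.0823, Scd2 -0.115 to 0.0515, Elovl6 -0.0385 to 0.0728. For αGlu in PA, Scd2 ranged from -0.0928 to 0.0849, Fads2 -0.146 to 0.0236, Elovl5 -0.105 to 0.0156, Elovl6 -0.0461 to 0.0522. For the difference of both responses, Acaca ranged from -0.0118 to 0.0709, Acly -0.069 to 0.0100, Scd1 -0.0732 to 0.243, Scd2 -0.0812 to 0.13, Fads1 -0.0375 to 0.109, Fads2 -0.0585 to 0.144, Elovl6 -0.0771 to 0.052, Elovl7 -0.0748 to 0.0683. For the response by batch, Fads1 ranged from 0.364 to 0.477. The losses and gains of a call were those of Elovl5 for PA in αGlu, without S12, and of Fads1 for the response by batch, without S21.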
